A study of Homo sapiens with 4 samples.

Results

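Interferon-stimulated antiviral effector genes were followed in the human lung cancer cell line H1792 with and without the degrader ACBI1. The group comprised 43 named genes that act directly against viruses or tune that response, and all 43 symbols were found among the 61228 features of the count files. They were picked by name rather than by a threshold, but with earlier results of these data known. Both groups of cells carried the genotype written as WT and were kept for 96 h in culture dishes, 2 libraries with the solvent DMSO and 2 with ACBI1 at a dose that the labels give as 1 mM; the unit could not be checked and may be an error. ACBI1 is a PROTAC that joins SMARCA2, SMARCA4 and PBRM1, proteins of the SWI/SNF chromatin remodelling complexes, to the VHL ubiquitin ligase so that they are broken down. The line comes from 1 tumour, and the labels do not say whether replicates were separate cultures, so p-values measure the spread between these libraries only.

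When an infected cell or its neighbour releases interferon, receptors at the surface activate JAK kinases, and a complex that holds STAT2 and IRF9 enters the nucleus. This complex binds a DNA motif called the ISRE before the start of many genes. Their products block viral entry, degrade or sequester viral RNA, change nucleotide pools, tether budding particles and mark proteins with the ubiquitin-like protein ISG15. Many of them are also transcribed at a low level in cancer cells without added interferon.

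The gene starts were examined first for the ISRE. The core searched was a pair of GAAA blocks with 2 bases of any kind between them, or TTTC and TTTC when read on the other strand, within the 250 bases before each RefSeq start (GRCh38.p14). Overlapping matches were counted separately. Of the 43 genes, 35 had an entry in the RefSeq promoter table, and 25 of these (71.4%) held at least 1 core before at least 1 of their starts. Over all 27305 genes in that table the share was 3.71%. Among members with a single listed start, 18 of 23 held a core, against 3.21% of 22114 such genes. The members were chosen as interferon-stimulated genes, so a share above that of all genes is a description and no test. A match is a description of letters and does not show that a factor binds there. The first stretches shown are those of the 4 members with a core that fell most among those called lower by the test described further on. IFIT1 (-2.10) and EPSTI1 (-2.02) also held a core and had lower log2 changes than IFI44L (-1.99), but were not called. Next come the 4 with a core that changed least, then HERC5, which was added after its values were seen because it rose. The stretch of IFI44L leaves out another core in its window. Capitals mark the cores, and each stretch runs 5′ to 3′ on the gene's own strand. Stretches were shortened so that at most 30 bases lay in exons annotated by GENCODE 29. Those of BST2, LGALS3BP, PLSCR1, PARP9 and PARP12 are 30 bases long and lie wholly in such exons, though before the RefSeq start.
BST2, chr19:17405735-17405764, minus strand: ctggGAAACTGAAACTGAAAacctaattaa
LGALS3BP, chr17:78979962-78979991, minus strand: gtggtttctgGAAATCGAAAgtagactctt
IFIT3, chr10:89327840-89327919, plus strand: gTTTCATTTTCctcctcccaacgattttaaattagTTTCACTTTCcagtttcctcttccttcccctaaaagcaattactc
IFI44L, chr1:78620350-78620409, plus strand: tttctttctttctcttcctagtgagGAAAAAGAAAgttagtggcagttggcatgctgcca
PLSCR1, chr3:146544667-146544696, minus strand: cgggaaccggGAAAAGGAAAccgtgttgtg
PARP9, chr3:122564322-122564351, minus strand: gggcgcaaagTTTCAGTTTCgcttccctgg
IFI27, chr14:94110596-94110695, plus strand: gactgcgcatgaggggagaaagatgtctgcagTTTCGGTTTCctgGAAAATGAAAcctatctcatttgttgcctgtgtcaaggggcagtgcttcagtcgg
PARP12, chr7:140062952-140062981, minus strand: tttcgccggcccggggccgcTTTCGGTTTC
HERC5, chr4:88456955-88457054, plus strand: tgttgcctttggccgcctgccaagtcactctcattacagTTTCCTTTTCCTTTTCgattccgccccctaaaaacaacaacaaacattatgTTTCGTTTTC

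A core stood before genes that moved in opposite directions. BST2, which had the lowest fitted change of the members, carried 2 overlapping cores, and HERC5, which had the highest, carried 3. Of the 14 members in the promoter table that were called lower with ACBI1, 8 held a core, as did both that were called higher and 15 of the 19 that were not called. The 25 members with a core had log2 changes from -7.81 to 1.32 with a median of -1.10, and the 10 without one had changes from -4.34 to 0.31 with a median of -0.97. USP18, IFIT2, IFITM2, OAS2, OASL, MX2, PARP10 and PML had no entry.

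**Figure D1:**
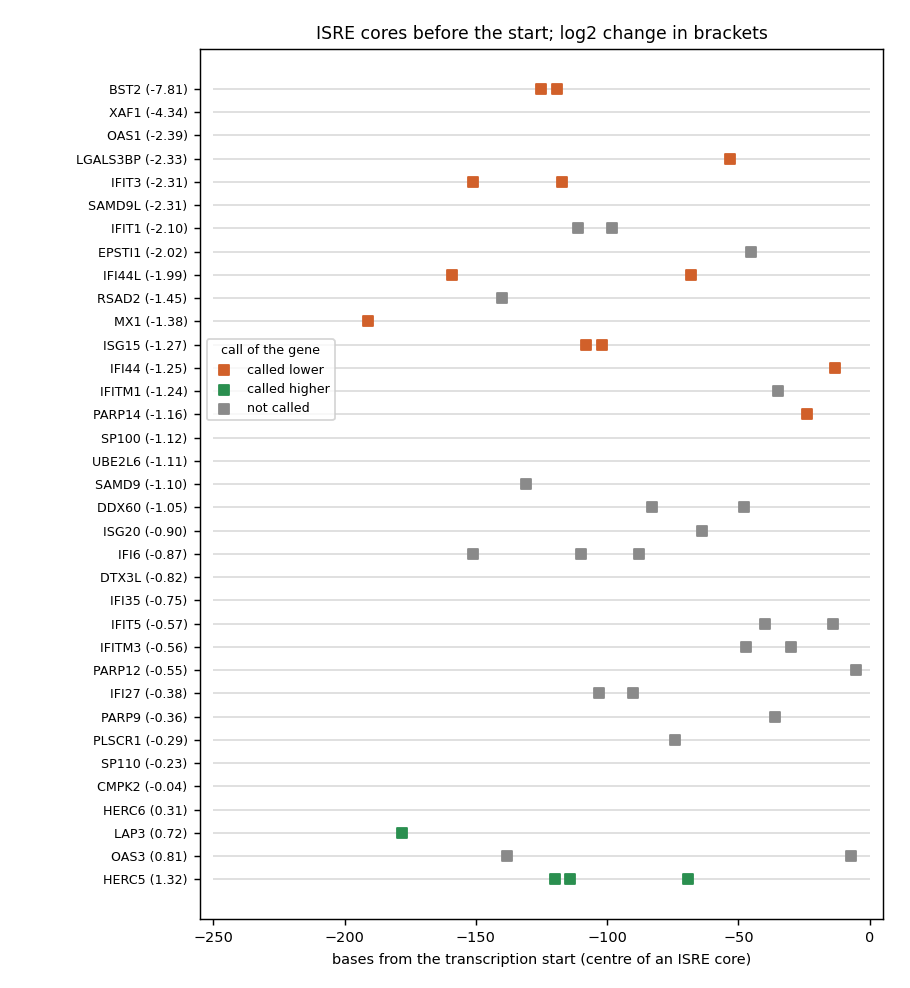
Position of ISRE cores before the transcription start of the 35 members with a RefSeq promoter entry, ordered from the lowest to the highest log2 change, which is given in brackets. For genes with several starts the one with the most cores is drawn. The x axis is the distance in bases and the colour gives the call; cores stand before genes at both ends of the order, from BST2 at -7.81 to HERC5 at 1.32.

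Counts assigned to genes ranged from 64281850 to 86010100 per library. The epithelial markers chosen for the line summed to 1004 and 1087 CPM (counts scaled to library size, with TMM factors) in the DMSO libraries and to 326 and 206 CPM in the ACBI1 libraries, while CDH1 was at most 0.222 CPM. KRT7 made up most of the DMSO sums, at 678 and 680 CPM. EPCAM had the opposite sign, at 5.38 and 2.78 CPM with DMSO and 15.6 and 4.84 CPM with ACBI1. Its groups overlapped, and its log2 change of 1.32 was not significant (edgeR adjusted p 0.179). A list of 7 leucocyte markers summed to 0.405 to 1.13 CPM, with CD3E at 0 counts in each library. The 5 fibroblast markers summed to 991 and 1941 CPM with DMSO, where each was over 1 CPM, and to 87.5 and 270.4 CPM with ACBI1, where DCN was at 0.0447 and 0.107 CPM and LUM at 0.570 and 1.65 CPM. The 4 endothelial markers summed to 12.7 and 49.0 CPM against 0.123 and 0.107 CPM; PECAM1 made up nearly all of the DMSO sums, at 12.2 and 48.1 CPM, and was at 0.0112 and 0.0458 CPM with ACBI1. The part of these shifts in the results on antiviral genes was not tested. Transcripts of the degrader's targets SMARCA4, SMARCA2 and PBRM1 had log2 changes of 0.70, -0.40 and 0.10, none of them called, and since ACBI1 acts on the proteins they do not check the labels.

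The antiviral genes as a group were lower with ACBI1. Their transcripts took 0.191% and 0.218% of all gene counts with DMSO, and 0.0945% and 0.0989% with ACBI1. The secreted protein gene LGALS3BP alone held 33.3% and 40.2% of the members' counts with DMSO and 13.4% and 19.3% with ACBI1. Without it, the summed level of the other 42 genes was 1328 and 1326 CPM with DMSO and 786 and 782 CPM with ACBI1, which is 59.1% of the DMSO mean. In these bulk libraries, fewer expressing cells and less RNA per cell cannot be told apart.

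All 43 genes passed the filter on low counts and were tested with edgeR's quasi-likelihood test together with all other genes, 19159 in total. A gene is said to be called, to rise or to fall, where the p adjusted by Benjamini and Hochberg's method stayed under 0.05. Of the members, 20 were called lower (46.5%) and 2 higher (4.65%), while over all genes tested 17.4% were called, 10.6% lower and 6.75% higher. Since the genes were chosen with earlier results known, their share beside that of all genes is a description. The median log2 change was -1.12 over the members and 0.0080 over all genes tested. Both ACBI1 libraries lay under both DMSO libraries for 34 of the 43 members and over them for 4, where the shares over all genes tested were 32.2% and 31.1%. An unadjusted p under 0.05 was reached by 35 members and by 33.9% of all genes tested. Without ACBI1 replicate 1, 15 of the 22 called members were still called in the same direction, and without ACBI1 replicate 2 it was 14. In these fits 1 library stands for its group and is taken to vary like the other group.

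The members kept very different shares of their transcript. For 13 genes the ACBI1 mean was under 25% of the DMSO mean, for 20 it was between 25% and 75%, and for 10 it was at least 75%, including 5 above the DMSO mean. A mean of at least 1 CPM was reached by 38 members with DMSO and by 31 with ACBI1. Of the 20 genes called lower, 7 still had a mean over 10 CPM with ACBI1 and 6 had a mean under 1 CPM. Among these 6, XAF1 was already under 1 CPM with DMSO, at a mean of 0.955 CPM. Per kilobase of merged exon, the levels with ACBI1 were highest for IFITM3 at 105 CPM per kb, LGALS3BP at 43.1 and UBE2L6 at 28.3. With DMSO the same genes stood at 155, 217 and 61.0 CPM per kb, so that IFITM3 and LGALS3BP changed places.

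**Figure D2:**
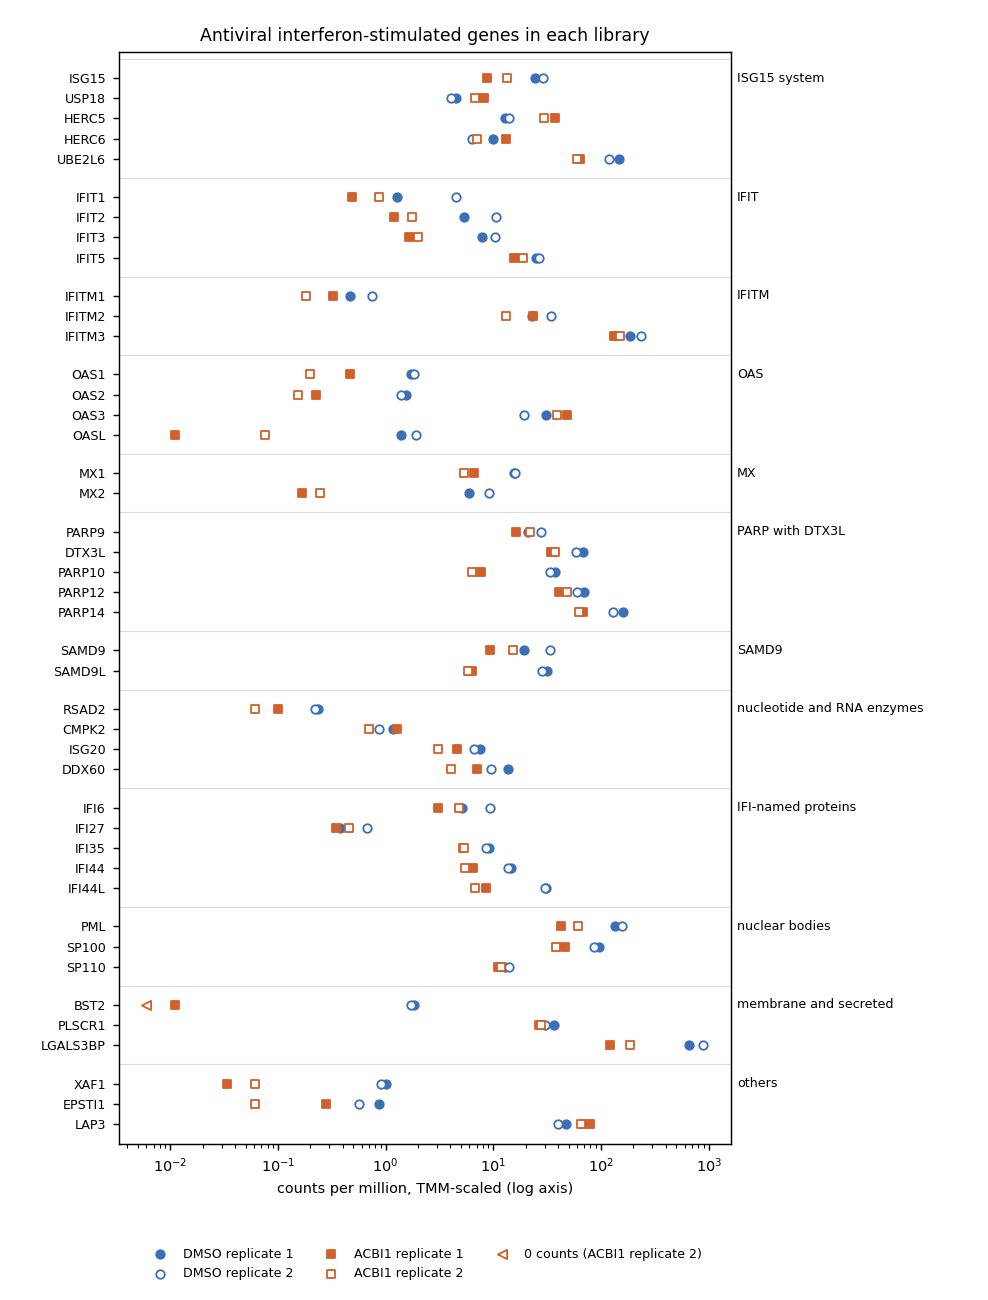
Level of each of the 43 genes in CPM on a log axis, with 1 symbol per library (blue circles DMSO, orange squares ACBI1; filled replicate 1, open replicate 2), grouped by subfamily. ACBI1 squares lie to the left of both DMSO circles for 34 genes and to the right for USP18, HERC5, OAS3 and LAP3; BST2 had 0 counts in ACBI1 replicate 2 and is drawn as a triangle.

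The genes of the ISG15 system went both ways. ISG15 itself, the ubiquitin-like modifier, was at 24.5 and 28.8 CPM in the DMSO libraries and at 8.66 and 13.4 CPM in the ACBI1 libraries. It fell by 1.27 on the log2 scale (SE 0.26, edgeR adjusted p 0.0256). UBE2L6, the conjugating enzyme that carries ISG15, was at 148 and 119.9 CPM against 64.1 and 60.1 CPM, a log2 change of -1.11 (SE 0.17, edgeR adjusted p 0.0123). The groups did not overlap for either gene. HERC5, the ligase that attaches ISG15 to newly made proteins, rose instead, from 12.9 and 13.9 CPM to 37.2 and 29.8 CPM. Its log2 change of 1.32 (SE 0.19, edgeR adjusted p 0.01001) was the highest among the members.

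USP18, the protease that removes ISG15 and also dampens the interferon receptor, was at 4.51 and 4.05 CPM with DMSO and at 8.14 and 6.76 CPM with ACBI1. Both ACBI1 libraries were higher, but the log2 change of 0.80 (SE 0.26) was not called by edgeR (adjusted p 0.0885), and DESeq2 was the only one of 7 alternative fits to all 4 libraries without a block that called it (adjusted p 0.0197). HERC6, the gene next to HERC5, was at 10.0 and 6.39 CPM against 13.2 and 7.11 CPM, so that the groups overlapped and no change was called (edgeR adjusted p 0.623). Its log2 change of 0.31 became -0.20 without ACBI1 replicate 1. UBA7 encodes the activating enzyme at the head of the same cascade and belongs to a list of interferon pathway partners described further on. It fell most in the pathway, from 16.2 and 12.7 CPM to 0.782 and 0.778 CPM, a log2 change of -4.21 (SE 0.29, edgeR adjusted p 0.00193). Along the cascade, the transcripts of the activating enzyme and the conjugating enzyme thus fell, while that of the ligase rose. Proteins were not measured. Without ACBI1 replicate 1 the calls of ISG15 (log2 change -0.98), UBE2L6 (-1.15) and HERC5 (1.16) were lost, with adjusted p of 0.0957, 0.0546 and 0.0503, and without ACBI1 replicate 2 that of UBE2L6 (-1.07, adjusted p 0.0562).

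Some of the IFIT genes encode proteins that bind foreign RNA ends. IFIT1, IFIT2 and IFIT3 were low in all libraries and lower with ACBI1, while IFIT5 kept most of its transcript. IFIT2 was at 5.29 and 10.6 CPM with DMSO and at 1.20 and 1.75 CPM with ACBI1, a log2 change of -2.43 (SE 0.44, edgeR adjusted p 0.0182). IFIT3 was at 7.82 and 10.3 CPM against 1.65 and 1.998 CPM and changed by -2.31 (SE 0.30, edgeR adjusted p 0.00765). Both were called lower. IFIT1, which recognises caps that lack host methylation, stood at 1.29 and 4.53 CPM with DMSO and at 0.492 and 0.869 CPM with ACBI1. The DMSO libraries of IFIT1 lay far apart. DESeq2 (adjusted p 0.00760) and edgeR without a filter on low counts (adjusted p 1.54e-05) called IFIT1 lower. With the filter, edgeR made no call for its change of -2.10 (SE 0.67, adjusted p 0.0810). It was -2.74 without DMSO replicate 1, where it was called (adjusted p 0.00140), and -0.93 without DMSO replicate 2. IFIT5, which binds triphosphate ends of RNA, was at 24.9 and 26.5 CPM against 15.7 and 18.8 CPM, or 67.2% of the DMSO mean. No call was made (log2 change -0.57, SE 0.18, edgeR adjusted p 0.0832). IFIT2 shares 10.3% of its exonic length with other annotated exons, and its call was lost without ACBI1 replicate 1 (-2.17, adjusted p 0.0599).

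None of the 3 IFITM genes was called, and 2 had an unadjusted p under 0.05. Without a filter on low counts, edgeR called IFITM2 (adjusted p 0.0315) and IFITM3 (adjusted p 0.0377) lower, but not IFITM1 (adjusted p 0.0916). The IFITM genes encode small membrane proteins that hinder the fusion of enveloped viruses with the cell. IFITM3, the most abundant of them, was at 185 and 234 CPM with DMSO and at 132 and 151 CPM with ACBI1, which is 67.6% of the DMSO mean (log2 change -0.56, SE 0.19, edgeR adjusted p 0.0936). Its ACBI1 libraries lay under both DMSO libraries, and without DMSO replicate 1 it was called lower (-0.72, adjusted p 0.0439), and without DMSO replicate 2 it was not (-0.39, adjusted p 0.335). IFITM2 was at 22.9 and 34.2 CPM against 23.2 and 13.0 CPM, with overlapping groups. IFITM1 stayed under 1 CPM in each library, at 0.467 and 0.751 CPM with DMSO and 0.324 and 0.183 CPM with ACBI1. These 3 genes are near copies of each other, and IFITM1 and IFITM2 share annotated exons over 32.5% and 22.7% of their exonic length, so reads may have been split or dropped. For IFITM3, 21.3% of the exonic length is shared with antisense annotation.

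The OAS genes diverged, with 3 called lower and OAS3 higher in both ACBI1 libraries without a call. OAS1, OAS2 and OAS3 encode enzymes that sense double-stranded RNA and make oligoadenylates, a signal for the breakdown of RNA. OAS1 was at 1.73 and 1.83 CPM with DMSO and at 0.469 and 0.198 CPM with ACBI1 (log2 change -2.39, SE 0.49, edgeR adjusted p 0.0259). OAS2 was at 1.55 and 1.39 CPM against 0.223 and 0.153 CPM (log2 change -2.94, SE 0.42, edgeR adjusted p 0.00966). Both fell from a low level. OAS3, the longest of them, stood at 30.8 and 19.2 CPM with DMSO and at 48.7 and 38.9 CPM with ACBI1. Both ACBI1 libraries were higher, yet the log2 change of 0.81 (SE 0.26) was not called by edgeR with all libraries (adjusted p 0.0859). It was called by DESeq2 (adjusted p 0.0365), without a filter on low counts (adjusted p 0.00293) and without DMSO replicate 1 (log2 change 1.20, adjusted p 0.00507), but not without DMSO replicate 2 (0.50, adjusted p 0.232).

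OASL, a relative without synthetase activity that strengthens signalling by the RNA sensor RIG-I, nearly vanished. It was counted 113 and 137 times with DMSO, and 1 and 5 times with ACBI1, or 1.39 and 1.90 CPM against 0.0112 and 0.0763 CPM. The fitted log2 change was -5.30 (SE 0.72, edgeR adjusted p 0.00854), while leaving out ACBI1 replicate 1 gave -4.39 and leaving out ACBI1 replicate 2 gave -7.03. Since OAS3 carried most of the reads, the summed level of the subfamily went from 35.5 and 24.3 CPM to 49.4 and 39.4 CPM, although 3 of its 4 genes fell. OAS1 was at -3.15 without ACBI1 replicate 1 and lost its call without ACBI1 replicate 2 (-1.93, adjusted p 0.0669).

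Both MX genes, which encode dynamin-like GTPases, fell, but by different amounts. MX1, which acts on influenza and other viruses in the cytoplasm, was at 15.5 and 15.8 CPM with DMSO and at 6.59 and 5.40 CPM with ACBI1 (log2 change -1.38, SE 0.23, edgeR adjusted p 0.0136). MX2, which acts on HIV and herpesviruses at the nuclear pore, was at 5.99 and 9.15 CPM against 0.168 and 0.244 CPM. Its 1146 DMSO counts stood against 31 ACBI1 counts, a log2 change of -5.21 (SE 0.43, edgeR adjusted p 0.00257). MX1 thus kept 38.3% of its DMSO mean and MX2 kept 2.72%. MX1 was no longer called without ACBI1 replicate 2 (-1.26, adjusted p 0.06002).

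Several PARP genes of the interferon response encode enzymes that attach single ADP-ribose units to proteins, and DTX3L encodes the ubiquitin ligase that pairs with PARP9. PARP10 had the lowest change of them, from 37.2 and 33.8 CPM to 7.63 and 6.38 CPM (log2 change -2.34, SE 0.20, edgeR adjusted p 0.00259). PARP14 was at 162 and 129.7 CPM with DMSO and at 68.1 and 62.2 CPM with ACBI1 (log2 change -1.16, SE 0.18, edgeR adjusted p 0.0117). DTX3L was at 68.0 and 58.9 CPM against 34.0 and 37.8 CPM (log2 change -0.82, SE 0.16, edgeR adjusted p 0.0236). These 3 were called lower, and their groups did not overlap. PARP12 was at 69.4 and 60.2 CPM against 40.5 and 47.9 CPM, without overlap, and was not called (log2 change -0.55, edgeR adjusted p 0.0749). Without a filter on low counts, edgeR called PARP12 lower (adjusted p 0.0426). PARP9, the partner of DTX3L, was at 21.0 and 28.0 CPM against 16.2 and 21.96 CPM, so that the groups overlapped (log2 change -0.36, edgeR adjusted p 0.335). DTX3L lost its call without ACBI1 replicate 1 (-0.74, adjusted p 0.141) and without ACBI1 replicate 2 (-0.91, adjusted p 0.0737), and PARP14 without the latter (-1.11, adjusted p 0.0531).

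SAMD9 and SAMD9L are neighbouring relatives that restrict poxviruses and slow protein synthesis. SAMD9L fell from 31.8 and 28.2 CPM to 6.28 and 5.83 CPM (log2 change -2.31, SE 0.19, edgeR adjusted p 0.00259). SAMD9 was at 19.3 and 33.3 CPM with DMSO and at 9.23 and 15.3 CPM with ACBI1. The groups of SAMD9 did not overlap, but no call was made (log2 change -1.10, SE 0.35, edgeR adjusted p 0.0837). DESeq2 (adjusted p 0.0182) and edgeR without a filter on low counts (adjusted p 0.000132) called SAMD9 lower. Without DMSO replicate 1 it was called (-1.44, adjusted p 0.00402), and without DMSO replicate 2 it was not (-0.66, adjusted p 0.233).

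Among the enzymes that act on nucleotides and RNA, none of 4 was called and 3 had an unadjusted p under 0.05. ISG20, an exonuclease that degrades RNA, was at 7.602 and 6.67 CPM with DMSO and at 4.58 and 3.07 CPM with ACBI1 (log2 change -0.90, edgeR adjusted p 0.0969). DDX60, a helicase-like protein, was at 13.7 and 9.47 CPM against 7.08 and 4.09 CPM (log2 change -1.05, edgeR adjusted p 0.0932). Both had lower ACBI1 libraries without overlap, and DESeq2 called both (adjusted p 0.0256 and 0.0206). So did edgeR without a filter on low counts (adjusted p 0.0494 for ISG20 and 0.00540 for DDX60). Without DMSO replicate 2, DDX60 was also called by edgeR (-1.30, adjusted p 0.0354), but not without DMSO replicate 1 (-0.75, adjusted p 0.203). RSAD2, or viperin, which makes a chain-terminating nucleotide, had only 35 counts with DMSO and 13 with ACBI1. CMPK2, the kinase gene beside it, had 157 and 159 counts, overlapping groups and a log2 change of -0.041 (edgeR adjusted p 0.9598) that turned to 0.052 under scaling by library size only, to 0.20 without DMSO replicate 1 and to 0.30 without ACBI1 replicate 2.

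Of the 5 genes named IFI, the neighbours IFI44L and IFI44 were called lower. IFI44L was at 31.2 and 30.1 CPM with DMSO and at 8.63 and 6.74 CPM with ACBI1 (log2 change -1.99, SE 0.21, edgeR adjusted p 0.00437). IFI44 was at 14.6 and 13.8 CPM against 6.46 and 5.48 CPM (log2 change -1.25, SE 0.23, edgeR adjusted p 0.0181). In both genes the replicates lay close together and the groups far apart. IFI35 was at 9.19 and 8.60 CPM against 5.18 and 5.38 CPM and was not called (log2 change -0.75, edgeR adjusted p 0.0794). DESeq2 was the only 1 of 7 alternative fits to all 4 libraries without a block that called IFI35 (adjusted p 0.0153). IFI6, which encodes a membrane protein of the endoplasmic reticulum and mitochondria, was at 5.07 and 9.31 CPM against 3.09 and 4.76 CPM (log2 change -0.87, edgeR adjusted p 0.181), and was called without DMSO replicate 1 (-1.24, adjusted p 0.0356) but not without DMSO replicate 2 (-0.38, adjusted p 0.653). IFI27 stayed under 0.7 CPM in each library, with overlapping groups, and its log2 change of -0.38 became 0.068 without DMSO replicate 2. IFI44 lost its call without ACBI1 replicate 1 (-1.36, adjusted p 0.0620) and without ACBI1 replicate 2 (-1.15, adjusted p 0.0824).

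Genes for nuclear bodies, protein assemblies that can silence incoming viral DNA, included 2 that fell. PML, their scaffold, was at 135 and 158 CPM with DMSO and at 42.8 and 60.9 CPM with ACBI1 (log2 change -1.50, SE 0.22, edgeR adjusted p 0.0104). SP100 was at 96.7 and 86.0 CPM against 46.1 and 38.0 CPM (log2 change -1.12, SE 0.17, edgeR adjusted p 0.0118), and without ACBI1 replicate 2 its change of -0.995 was not called (adjusted p 0.0569). Both stayed over 30 CPM in each library. SP110, a relative of SP100 in the same region of chromosome 2, kept 85.2% of its DMSO mean, at 12.9 and 13.9 CPM against 11.1 and 11.8 CPM, and was not called (edgeR adjusted p 0.466). For SP110, 20.9% of the exonic length is shared with antisense annotation.

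The membrane and secreted members held the lowest value of the whole set. BST2, or tetherin, which holds budding virus particles at the cell surface, was counted 151 and 125 times with DMSO, and 1 and 0 times with ACBI1. A count of 0 in ACBI1 replicate 2 allows up to 0.0458 CPM. The ratio of DMSO to ACBI1 counts, scaled to library size, was 279, and the exact 95% interval for counting error ran between 49.7 and 11063. The log2 change of -7.81 (SE 0.70, edgeR adjusted p 0.00301) depends on the prior count. Leaving out ACBI1 replicate 1 gave -10.03, and leaving out ACBI1 replicate 2 gave -7.15. BST2 was at 1.85 and 1.74 CPM with DMSO, so its loss concerned a transcript that was scarce from the start.

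LGALS3BP, a secreted glycoprotein that binds galectins, fell from 663 and 892 CPM to 122 and 187 CPM (log2 change -2.33, SE 0.28, edgeR adjusted p 0.00651). It was the most abundant member with DMSO and, by mean CPM, also with ACBI1, although IFITM3 at 132 CPM was higher in ACBI1 replicate 1. PLSCR1, a phospholipid scramblase of the plasma membrane, was at 36.5 and 30.3 CPM against 26.7 and 28.0 CPM and was not called (log2 change -0.29, edgeR adjusted p 0.290).

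LAP3, a leucine aminopeptidase that trims peptides, was the other member that rose, from 47.4 and 39.9 CPM to 78.5 and 64.9 CPM (log2 change 0.72, SE 0.18, edgeR adjusted p 0.0432). XAF1, a protein that opposes the apoptosis inhibitor XIAP, fell from 1.007 and 0.904 CPM to 0.0335 and 0.0610 CPM, with 147 counts against 7 (log2 change -4.34, SE 0.53, edgeR adjusted p 0.00653). An antisense gene overlaps 38.3% of the exonic length of XAF1. EPSTI1 was at 0.872 and 0.570 CPM against 0.279 and 0.0610 CPM and was not called (log2 change -2.02, edgeR adjusted p 0.0971). For EPSTI1, leaving out ACBI1 replicate 1 gave -3.52 and leaving out ACBI1 replicate 2 gave -1.37. LAP3 lost its call without DMSO replicate 2 (0.59, adjusted p 0.141), without ACBI1 replicate 1 (0.58, adjusted p 0.216) and without ACBI1 replicate 2 (0.84, adjusted p 0.0793).

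**Figure D3:**
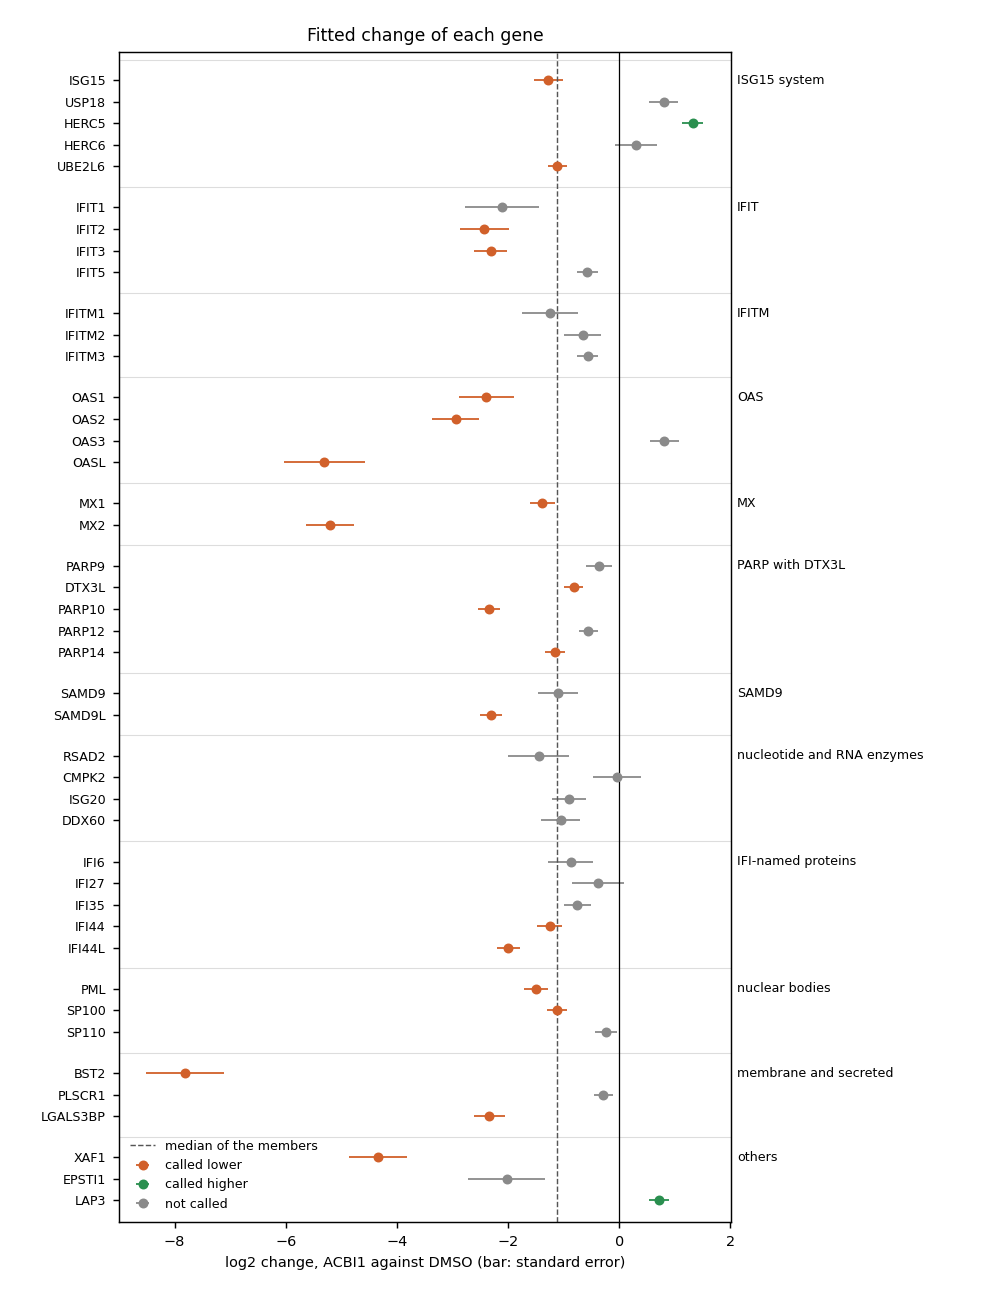
Fitted log2 change of each of the 43 genes, ACBI1 against DMSO, with its standard error as a bar, grouped by subfamily and coloured by call (orange lower, green higher, grey not called). The dashed line is the members' median of -1.12; HERC5 at 1.32 and LAP3 at 0.72 are the calls to the right of 0, and BST2 at -7.81 lies farthest to the left.

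By subfamily, the median log2 change was -3.30 for MX (2 of 2 called lower), -2.66 for OAS (3 of 4), -2.21 for IFIT (2 of 4) and -1.70 for SAMD9 (1 of 2). It was -1.12 for the nuclear body genes (2 of 3 called lower), -0.97 for the nucleotide and RNA enzymes (0 of 4), -0.87 for the IFI genes (2 of 5), -0.82 for PARP with DTX3L (3 of 5) and -0.66 for IFITM (0 of 3). The membrane and secreted genes had a median of -2.33 (2 of 3 called lower), and XAF1, EPSTI1 and LAP3 one of -2.02 (1 lower, 1 higher). The ISG15 system had a median of 0.31, with 2 of 5 called lower and 1 higher. The subfamilies hold few genes each, and differences between their medians were not tested.

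Many members sit beside a relative on the chromosome, which allows a comparison within a library that does not depend on scaling. Of 12 pairs of members with no other coding gene between them, the ratio of counts lay apart between the groups in 10 (83.3%). Over all 9788 such pairs of adjacent coding genes that were tested, with counts in every library, it lay apart in 66.2%, so separation by itself is common. Of 3 further pairs with other coding genes between (IFIT3 and IFIT1, DTX3L and PARP14, SP110 and SP100), 2 lay apart. With 2 libraries in each group an exact permutation test cannot go under a p of 0.333, so these ratios carry no test. In GENCODE 29 (GRCh38), OAS3 (chr12:112938352-112973249) and OAS2 (chr12:112978395-113011723) lie 5.15 kb apart on the plus strand. The log2 ratio of OAS3 to OAS2 counts was 4.32 and 3.79 in the DMSO libraries and 7.77 and 7.995 in the ACBI1 libraries. MX2 (chr21:41361943-41409390) and MX1 (chr21:41420304-41459214) lie 10.9 kb apart on the plus strand, and their log2 ratio went from -1.37 and -0.79 to -5.30 and -4.47. Neighbours in both clusters thus moved apart by more than a log2 of 3.

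Smaller shifts were seen in other clusters. HERC6 to HERC5 on chromosome 4 had a log2 ratio of -0.36 and -1.12 with DMSO and of -1.50 and -2.07 with ACBI1. SAMD9 to SAMD9L on chromosome 7 went from -0.72 and 0.24 to 0.56 and 1.39. CMPK2 to RSAD2, which start from overlapping positions on opposite strands of chromosome 2, went from 2.32 and 1.95 to 3.65 and 3.52. This ratio rests on few reads, with RSAD2 counted 19 and 16 times with DMSO and 9 and 4 times with ACBI1. Neither gene was called. IFI44L to IFI44 on chromosome 1 went from 1.10 and 1.13 to 0.42 and 0.30. Each of these 4 ratios separated the groups. IFIT2 to IFIT3 on chromosome 10, with -0.56 and 0.04 against -0.47 and -0.19, and PARP9 to DTX3L on chromosome 3, with -1.69 and -1.07 against -1.07 and -0.78, did not separate them.

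**Figure D4:**
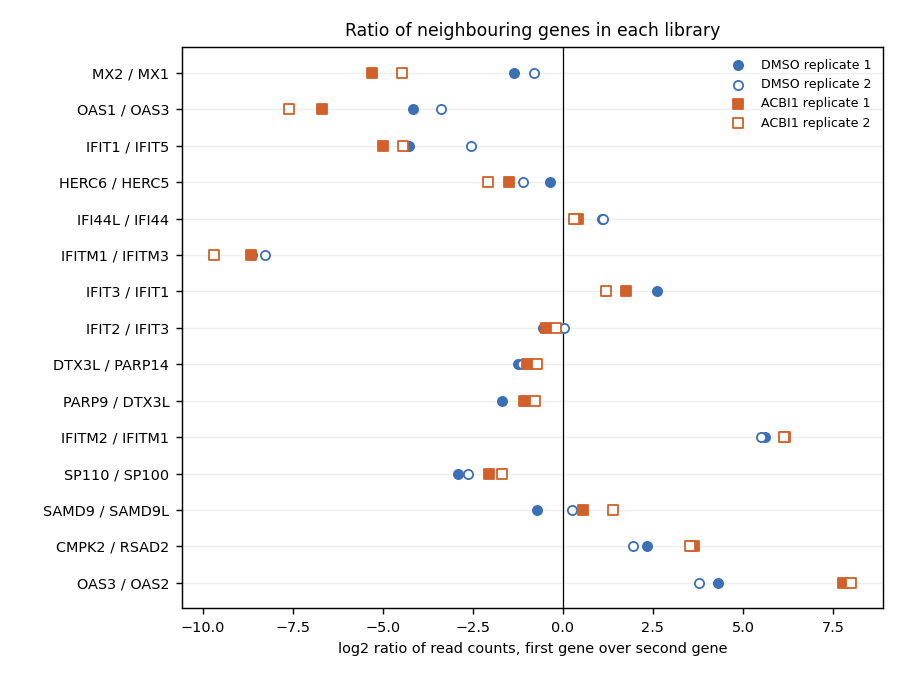
Log2 ratio of read counts between members that follow each other on a chromosome (first gene over second; 3 of the 15 pairs have other coding genes between) in each of the 4 libraries, ordered by the difference between groups. Blue circles are DMSO and orange squares ACBI1; MX2/MX1 and OAS1/OAS3 at the top and OAS3/OAS2 at the bottom show the widest separation, and IFIT2/IFIT3 overlaps.

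The effector genes depend on receptors, kinases and transcription factors, and some work with partners outside the group. Of 23 such partner genes, all tested, 7 were called lower (30.4%) and none higher by edgeR, beside 10.6% and 6.75% over all genes tested. At an unadjusted p under 0.05 there were 11, beside 33.9% of all genes tested. A pair of further partners was left out of the list after the tests, so these counts are over a shortened list. Their median log2 change was -0.39. STAT2, which encodes a subunit of the complex that binds the ISRE, fell from 43.1 and 66.3 CPM to 12.3 and 19.6 CPM (log2 change -1.78, SE 0.31, edgeR adjusted p 0.0164). IRF9, whose product recognises the DNA, was at 1.08 and 0.945 CPM against 0.804 and 0.473 CPM and was not called (edgeR adjusted p 0.319). STAT2 was thus called and IRF9 was not, and IRF9 shares 48.4% of its exonic length with another gene.

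The transcription factor genes IRF1 and IRF7 also fell. IRF1, which shares part of its exonic length with antisense genes, was at 172 and 124 CPM with DMSO and at 34.1 and 28.7 CPM with ACBI1 (log2 change -2.23, edgeR adjusted p 0.00396), and IRF7 had a log2 change of -1.29 (edgeR adjusted p 0.0425). The receptor chain gene IFNGR1 had a log2 change of -1.18 (edgeR adjusted p 0.00868), the feedback inhibitor SOCS1 one of -2.53 (adjusted p 0.0230) and TRIM22 one of -2.49 (adjusted p 0.0205). The chains of the receptor for type I interferon were not called, with log2 changes of -0.39 for IFNAR1 and 0.47 for IFNAR2, but IFNAR2 shares 83.2% of its exonic length with other genes; both were added after their values were seen. IRF7 was not called without DMSO replicate 1 (-1.07), ACBI1 replicate 1 (-1.64) or ACBI1 replicate 2 (-1.02), nor were SOCS1 (-2.73 and -2.37) and TRIM22 (-2.72 and -2.32) without either ACBI1 library in turn, or IFNGR1 without ACBI1 replicate 1 (-1.10). SOCS1 was at -1.78 without DMSO replicate 2.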

How the data were processed

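Reads per gene symbol were deposited by the authors as whole-number counts in the layout of htseq-count, 1 file per library. TopHat2 2.1.1, HTSeq 0.11.0 and hg38 are named, without roles, per the submitters' processing notes; annotation and strand setting are not given in the sources used here. The labels' protocols name a DNA library kit, with no step from RNA to DNA. Reads given to no gene (13.9% to 15.4% of the reads listed) were left out. Without a stated strand setting, overlapping genes cannot be told apart.

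Counts passing edgeR's filterByExpr (minimum count 10, minimum total 15) received TMM factors; tests used edgeR 4.0.16 under R 4.3.3 (two-sided, treatment alone, Benjamini-Hochberg over 19159 genes); alternatives used DESeq2 1.42.0 and limma 3.58.1. CPM use TMM-scaled library sizes, and the SE is the log2 change over the root of F. The script was checked on simulated counts. Exon lengths and overlaps came from GENCODE 29 (GRCh38), promoters from RefSeq (GRCh38.p14). Counting intervals and the floor of 3 counts cover counting error only. Within a subfamily, called genes were given in full. The most abundant uncalled ones were given with their levels and adjusted p, some without log2 change or SE. The members and lists were chosen with earlier results of these data known; 2 further genes of the partner list, as first written, are not reported here and are in no partner count. Libraries of a group differed by more than sampling noise (chi-square per degree of freedom 144 and 94.9).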

Additional observations from a re-analysis of the deposited data

How the results depend on the processing

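With 2 libraries per group, calls rest on a spread shared between groups and genes. Scaling by DESeq2 size factors, upper quartile or library size only, and limma-voom, each kept 20 members lower and 2 higher, and the median over all genes was at most 0.095, under library size only. That scaling brought falls from 61.2% to 51.5% of all calls (2037 lower and 1294 higher against 1866 and 1755). Without a filter, 3316 genes were called lower and 2202 higher, with 28 and 3 members. With a mean of at least 5 CPM, 11158 genes could be tested, 30 members among them. There, 1443 genes were lower and 1113 higher, with 13 and 2 members. DESeq2 called 2604 genes lower and 1907 higher, with 25 and 4 members. At an adjusted p under 0.01, 611 genes were lower and 172 higher, with 10 and 0 members and 3 and 0 partners. With a log2 change of at least 1, 1668 genes were lower and 794 higher, and 19 members were lower and 1 higher.

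Under a replicate block, that is a term for the shared number, 4201 genes were lower and 3708 higher, with 30 and 4 members and 12 and 1 partners; all 22 called members were called there too. No label says that a number marks a shared batch; the deviations of same-numbered libraries correlated at 0.442 across genes, which are not independent.

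With 1 library left out, 964 to 2641 genes were lower and 415 to 1651 higher, 13 to 24 members lower and 0 to 3 higher, and 3 to 7 partners lower and 0 higher. The sign turned in 8 genes without a call: CMPK2 (0.052) and ADAR (0.012) under library size only, and, over the fits with 1 library left out, HERC6 (-0.20 to 0.67), CMPK2 (-0.52 to 0.30), IFI27 (-0.73 to 0.068), IFNLR1 (-0.53 to 0.23), IL10RB (-0.14 to 0.76), TRIM25 (-0.036 to 0.65), ADAR (-0.18 to 0.030) and SAMHD1 (-0.25 to 0.021). These fits have fewer samples; the cause was not tested.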
